A study of Mus musculus with 24 samples.

Results

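The 9 genes described here mark the progenitors and the inhibitory neurons of the cerebellum: Ptf1a, Neurog1, Pax2, Lhx1, Lhx5, Gad1, Gad2, Slc32a1 and Slc6a5. They were picked by gene name from a table of 55416 gene rows, each name matched 1 row, and all 9 were among the 17736 genes with enough reads to be tested. The question was whether ethanol given to newborn mice altered the level of these RNAs in the cerebellum.

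The samples were cerebella of 24 neonatal C57BL/6J mice, 12 given ethanol (Ethanol) and 12 given the carrier alone (Vehicle), in a model of alcohol exposure late in human pregnancy. Ethanol animals received 4 g/kg/day of ethanol in intralipid, a fat emulsion, by gavage into the stomach from P4 (postnatal day 4), and Vehicle animals received intralipid in which water replaced the ethanol. Cerebella were taken after perfusion, 24 hours after the last dose: at P5 after 1 dose or at P6 after 2 doses. Strain, gavage and the fat emulsion were therefore common to both groups. The labels give a treatment and an animal number but no age, sex or litter, so every comparison pools P5 and P6, and with them 1 and 2 doses. Each library is 1 animal. By the published methods the 24 pups came from 6 litters, and every litter gave 2 Ethanol and 2 Vehicle pups, 1 male and 1 female of each. In order of animal number the animals form 6 runs of 4, also with 2 Ethanol and 2 Vehicle animals in each, but the litter of a given animal number is not stated, so whether a run is a litter cannot be told. The test therefore treated littermates as independent, and values within runs or with runs as a block are given beside it.

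The inhibitory neurons of the cerebellum arise from the ventricular zone, where progenitors that express the transcription factor Ptf1a produce Purkinje cells first and interneurons later. Interneuron precursors switch on Pax2 as they leave the cell cycle, and after birth they migrate through the white matter and settle as Golgi, basket and stellate cells. Mature inhibitory neurons make GABA with the enzymes encoded by Gad1 and Gad2 and load GABA or glycine into vesicles with the transporter encoded by Slc32a1. Glycinergic cells also carry the glycine transporter encoded by Slc6a5. In RNA from whole cerebellum, fewer cells of a type and less RNA in each of those cells cannot be told apart.

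Ptf1a and Neurog1 were the only genes of the 9 that passed the test, and the 250 bases upstream of their RefSeq starts (GRCm38.p6) are shown here because these 2 genes carry the main result. Sequences are written 5′ to 3′ on the strand of the gene. The Ptf1a window is chr2:19445413-19445662 on the plus strand and the Neurog1 window is chr13:56252181-56252430 on the minus strand.
Ptf1a: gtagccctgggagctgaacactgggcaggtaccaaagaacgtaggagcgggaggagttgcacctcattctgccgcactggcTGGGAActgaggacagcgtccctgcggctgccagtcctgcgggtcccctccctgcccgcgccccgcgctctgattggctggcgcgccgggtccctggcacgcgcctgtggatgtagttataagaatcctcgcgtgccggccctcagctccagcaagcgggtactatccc
Neurog1: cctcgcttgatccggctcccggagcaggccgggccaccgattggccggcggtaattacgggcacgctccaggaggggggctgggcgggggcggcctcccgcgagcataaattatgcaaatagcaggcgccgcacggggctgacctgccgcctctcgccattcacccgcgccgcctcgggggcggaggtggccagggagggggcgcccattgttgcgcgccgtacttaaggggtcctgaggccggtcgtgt
Both strands were searched for TGGGAA, the TC-box that is part of the binding site of the Ptf1a complex, and for CANNTG, the E-box bound by bHLH factors. Capitals mark the match: the Ptf1a window held 1 TGGGAA and no CANNTG, and the Neurog1 window held neither. Of all 32851 RefSeq windows of the same length, 21.6% held TGGGAA and 66.2% held CANNTG. A match to these letters is a description of the sequence only. Windows were found for 8 of the 9 genes.

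Libraries held 26982564 to 38804942 estimated counts in Ethanol animals and 29039888 to 38696615 in Vehicle animals. Levels are given as CPM, the count of a gene relative to the scaled total of its library, and differences as log2 fold changes of Ethanol over Vehicle from edgeR's quasi-likelihood test with Benjamini-Hochberg adjustment over all tested genes. Log2 fold changes are given ± SE, and a gene passed at an adjusted p under 0.05. The 95% intervals are for each gene alone and are not adjusted. Over all 17736 genes 14.9% passed, 9.07% higher and 5.8% lower in Ethanol animals, and 0.175% had groups that did not overlap. With upper-quartile scaling, the higher genes made up 49.6% of those that passed, against 61% with the scaling used here. The labels name the tissue only as brain, and the libraries held RNA of cerebellar cells: the 12 Purkinje cell markers summed to 1884 to 2366 CPM and the 12 markers of maturing cerebellar interneurons to 357 to 421 CPM, all 12 of these above 0 in every library. In 4 libraries, 2 of each group, the choroid plexus gene Ttr lay at 1.15 to 3.57 CPM, far below the others.

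Of the 9 genes, 2 rose in Ethanol animals (22.2%, beside 9.07% of all genes) and 0 fell in edgeR (beside 5.8%). A share of 9.07% would give 0.816 genes among 9, so the count alone lies close to what the table as a whole shows. By unadjusted p under 0.05, 4 of the 9 were higher and 1, Pax2, was lower. At least 4849 of the 17736 genes met that looser cut, since Gad2, at an unadjusted edgeR p of 0.0446, held position 4849. Counts from limma-trend, limma-voom and DESeq2 were also 2 in all. The 9 log2 fold changes had a median of 0.03, beside -0.01 for all genes, and 7 were positive. The 2 genes that rose both encode bHLH transcription factors of progenitor cells. None of the 4 genes for making or transporting the transmitters passed, beside 14.9% of all genes. With so few genes these counts cannot tell the 2 kinds apart.

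Neurog1, a proneural bHLH factor that starts neuronal differentiation in progenitors, had the larger change. Its level in Vehicle animals ran from 1.12 to 2.24 CPM with a median of 1.73, and in Ethanol animals from 2.06 to 3.47 CPM with a median of 2.60. All 12 Ethanol animals lay above the Vehicle median and 11 lay above the highest Vehicle animal, so the groups overlapped by 1 animal on each side. The means were 1.66 ± 0.379 CPM in Vehicle and 2.66 ± 0.401 CPM in Ethanol animals (SD, n = 12 each). Neurog1 RNA was thus 60.6% higher after ethanol (95% interval 36.4% to 89.1%), or 0.68 ± 0.11 on the log2 scale (adjusted p = 0.000205), which placed it at position 149 of all genes by p. Only 35 to 119 counts per library stood behind these values. The difference was positive in 6 of 6 runs, from 0.35 to 1.17 on the log2 scale.

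Ptf1a, the bHLH factor that commits ventricular zone progenitors to an inhibitory fate, rose less and with more overlap. Vehicle animals ran from 2.05 to 4.29 CPM with a median of 2.87, and Ethanol animals from 2.75 to 5.75 CPM with a median of 3.94. Of the Ethanol animals, 11 lay above the Vehicle median but only 4 above the highest Vehicle animal. The means were 2.96 ± 0.582 and 4.0 ± 0.949 CPM (SD, n = 12 each), a rise of 34.9% (95% interval 13.4% to 60.6%) or 0.43 ± 0.12 on the log2 scale (adjusted p = 0.0156). The rise was uneven across the runs: the difference was 0.85 in run 2 and 0.66 in run 3, but 0.00098 in run 4 and 0.09 in run 5. Without run 2 the log2 fold change was 0.34 (adjusted p = 0.0957) and without run 3 it was 0.39 (0.0676). Without the 4 libraries low in Ttr it was 0.38 (0.0635), while the test was passed each time 1 of the 24 animals was left out, with adjusted p up to 0.0386. Ptf1a shares exon sequence with its antisense gene Ptf1aos, for which 0 to 4.3 counts per library were listed beside 63 to 208 for Ptf1a, and since the strand setting of the counting is not given, reads of the pair cannot be told apart.

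**Figure D1:**
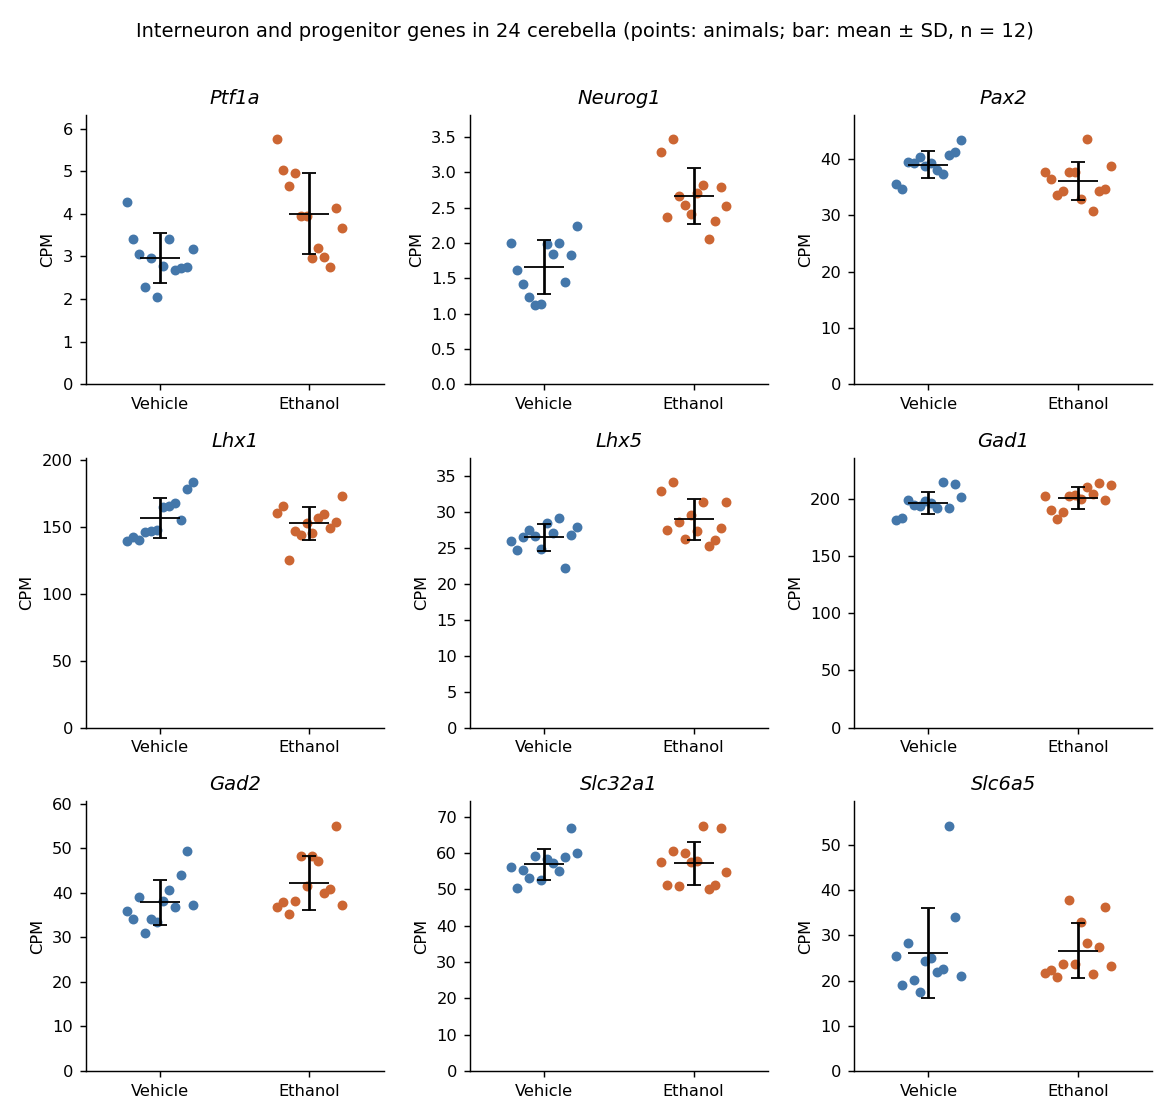
Level of each of the 9 genes in CPM (vertical axes, linear, from 0) in the 12 Vehicle and 12 Ethanol animals, 1 point per animal, with bars for the mean ± SD. The Neurog1 groups overlap by 1 animal on each side, Ptf1a overlaps more, and the other 7 genes overlap broadly, with 1 Vehicle animal at 54.3 CPM far above the rest in Slc6a5.

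Pax2, the paired-box factor of migrating interneuron precursors, had lower values in most Ethanol animals but did not pass. Vehicle animals ran from 34.7 to 43.3 CPM with a median of 39.2, and Ethanol animals from 30.7 to 43.5 CPM with a median of 35.5. Only 1 Ethanol animal lay above the Vehicle median, and that same animal was also above the highest Vehicle animal. The log2 fold change was -0.11 ± 0.04 (adjusted p = 0.0817), that is -7.59% with an unadjusted 95% interval of -13.3% to -1.51%. Without the Ethanol animal X4694 the value was -0.14 (adjusted p = 0.0176), without run 1 it was -0.15 (0.0497), and with upper-quartile scaling it was -0.13 (0.0439). These were among only 4 of 41 other settings of the fit in which Pax2 passed, and its adjusted p reached 0.247. The difference was negative in every run except run 1, where it was 0.07.

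Lhx5 and Lhx1 encode LIM-homeodomain factors that act together in young Purkinje cells. Lhx5 ran from 22.2 to 29.2 CPM in Vehicle animals with a median of 26.8, and from 25.3 to 34.2 CPM in Ethanol animals with a median of 28.2. The difference was 0.13 ± 0.05 on the log2 scale (adjusted p = 0.0666), or 9.57% with an unadjusted interval of 2.14% to 17.5%, and it was positive in 6 of 6 runs. It passed without the Ethanol animal X4758 (0.14, adjusted p = 0.0454), without the Vehicle animal X4761 (0.15, 0.0482) and without run 5 (0.16, 0.0269). These were among only 4 of 41 other settings of the fit in which Lhx5 passed, and its adjusted p reached 0.199. Lhx5 shares exon sequence with the antisense gene Gm27199, listed at 39 to 101 counts beside 644 to 1190 for Lhx5. Lhx1 differed little: its medians were 151 CPM in Vehicle (range 139 to 183) and 153 CPM in Ethanol animals (range 125 to 173). Its log2 fold change was -0.04 ± 0.05 (adjusted p = 0.682), and the interval of -9.11% to 4.61% bounds the difference on either side.

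Neither of the enzymes that make GABA passed, and Gad2 differed by more than Gad1. Gad1 was the steadiest of the 9 genes, with a spread between animals of 4.99% of the mean in Vehicle and 4.77% in Ethanol animals. It ran from 182 to 215 CPM (median 196) in Vehicle and from 183 to 214 CPM (median 203) in Ethanol animals, and the groups overlapped almost entirely. The log2 fold change was 0.03 ± 0.03 (adjusted p = 0.55), with an interval of -2.12% to 6.50% around 2.10%. Gad2, the isoform concentrated at nerve terminals, ran from 30.9 to 49.3 CPM (median 37.0) in Vehicle and from 35.1 to 55.0 CPM (median 40.4) in Ethanol animals. Of the Ethanol animals, 10 lay above the Vehicle median but 1 above the highest Vehicle animal, and the difference of 0.16 ± 0.08 did not pass (adjusted p = 0.163). This was 11.6% with an unadjusted 95% interval of 0.197% to 24.4%, and the difference was positive in 6 of 6 runs. It passed without the Vehicle animal X4768, at 0.20 (adjusted p = 0.048). This was among only 2 of 41 other settings of the fit in which Gad2 passed, and its adjusted p reached 0.475.

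Slc32a1, the vesicular transporter shared by GABAergic and glycinergic neurons, had nearly the same level in both groups. It ran from 50.4 to 66.9 CPM (median 56.6) in Vehicle and from 50.0 to 67.5 CPM (median 57.5) in Ethanol animals, with a log2 fold change of 0.01 ± 0.05 (adjusted p = 0.954). The interval of -6.46% to 7.79% leaves room for a small difference in either direction. Its exons overlap those of the antisense gene Gm14205, listed at 0 to 32.7 counts per library beside 1396 to 2464 for Slc32a1. Slc6a5, the glycine transporter of glycinergic neurons, varied widely between animals, by 38.0% of the mean in Vehicle, the largest spread of the 9 there, and by 22.6% in Ethanol animals. It ran from 17.5 to 54.3 CPM (median 23.4) in Vehicle and from 20.9 to 37.9 CPM (median 23.6) in Ethanol animals. The difference was 0.03 ± 0.16 (adjusted p = 0.928), with an interval of -18.9% to 28.6%, and its SE was the largest of the 9. Single animals moved this value: it was 0.17 (adjusted p = 0.365) without the Vehicle animal X4762, which held the 54.3 CPM, and -0.03 (0.929) without the Ethanol animal X4681. Without 1 run it lay between -0.07 and 0.19.

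**Figure D2:**
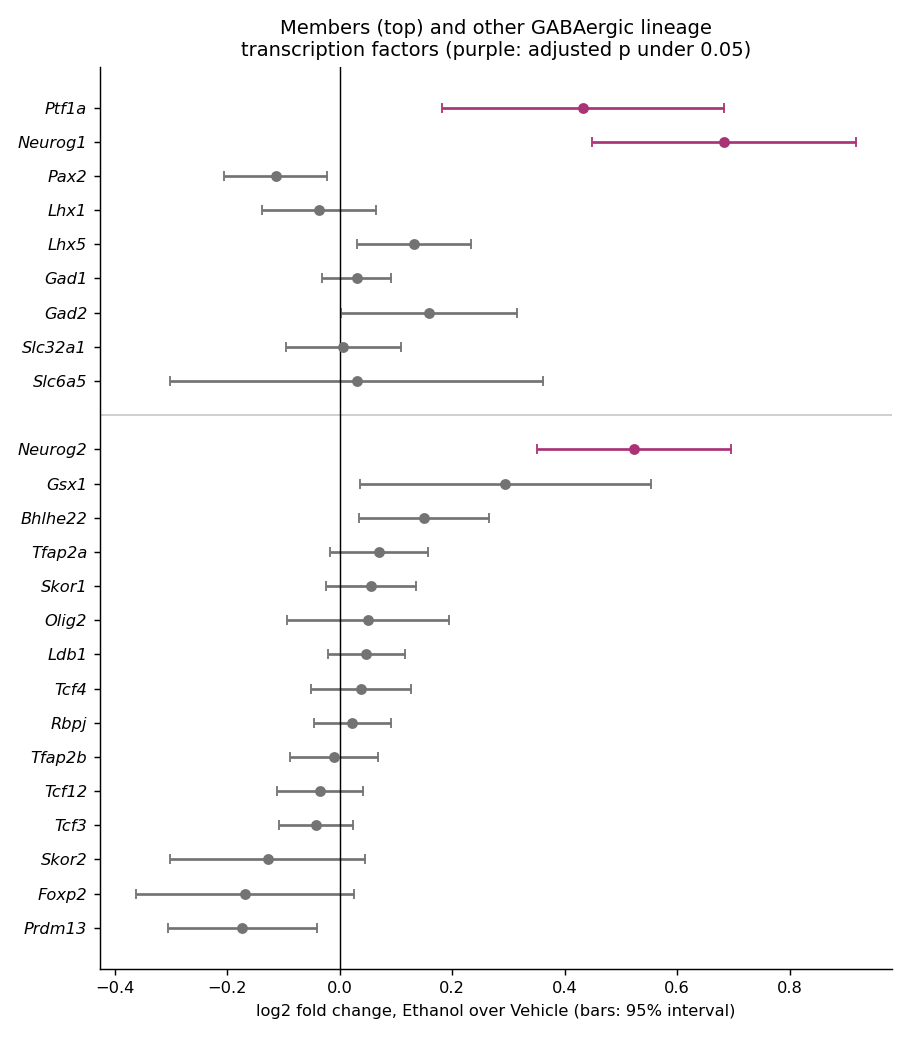
Log2 fold change of Ethanol over Vehicle animals (horizontal axis, linear) for the 9 genes above the grey line and for other transcription factors of the GABAergic lineage below it, with bars for the 95% interval. Neurog1 at 0.68, Neurog2 at 0.52 and Ptf1a at 0.43 are drawn in purple because they passed the test, and the other genes in grey did not.

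Among 16 other transcription factors of the GABAergic lineage, 2 rose, Neurog2 among them, and 0 fell in edgeR, with a median log2 fold change of 0.04. Over all genes 9.07% rose and 5.8% fell, so these counts lie near those of the table as a whole. By unadjusted p, 4 were higher and 1 was lower, and DESeq2 called 3 of the 16. With the runs as a block 5 of the 16 passed, and of all 17736 genes 1982 were then higher and 1363 lower. The bHLH factors Olig2 (0.05, adjusted p = 0.689) and Bhlhe22 (0.15, 0.0695) did not pass. Neurog2, a close relative of Neurog1, ran from 4.34 to 5.69 CPM (median 4.79) in Vehicle and from 4.75 to 9.18 CPM (median 7.22) in Ethanol animals. Its rise of 0.52 ± 0.08 (adjusted p = 0.000139) left 10 of 12 Ethanol animals above the highest Vehicle animal. Partners of these factors did not pass: Rbpj, which joins Ptf1a in its active complex, stood at 0.02 (adjusted p = 0.711), and the E-proteins Tcf3, Tcf4 and Tcf12 at -0.04, 0.04 and -0.03. Prdm13, a factor that acts after Ptf1a in interneuron specification, stood at -0.17 (adjusted p = 0.0639), and Gsx1, a progenitor homeobox factor, at 0.29 (0.113).

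Genes for the handling of GABA and glycine, and markers of maturing interneurons, did not pass in the fit reported, where 14.9% of all genes did. Of 11 genes for uptake and breakdown of GABA and glycine, chloride handling and receptor anchoring, 0 passed in edgeR, limma-trend, limma-voom or DESeq2, and 1, the glycine transporter Slc6a9, had an unadjusted p under 0.05 (log2 fold change 0.12, adjusted p = 0.108). Of 12 markers of maturing interneurons, 0 passed with any of these tools, and 1, Calb2, had an unadjusted p under 0.05 (0.22, adjusted p = 0.147). Kit, a receptor of basket and stellate cells, lay at 139 ± 3.83 CPM in Vehicle and 137 ± 8.92 CPM in Ethanol animals (SD, n = 12 each), with a log2 fold change of -0.01 (adjusted p = 0.802). Slc6a9 and Calb2 are named here because they were the single genes behind these counts and were chosen after their values were seen.

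The neighbouring cell types were counted in the same fit, in which 9.07% of all genes rose and 5.8% fell. Each count below is to be read beside these shares. Of 12 Purkinje cell markers, 3 fell and 1 rose: Car8, which regulates calcium release, fell by 0.17 (adjusted p = 0.000848) with 0 of 12 Ethanol animals above the Vehicle median, Pcp4, a calmodulin regulator, fell by 0.13 (0.0289), and Rora, a nuclear receptor needed for Purkinje cell survival and named after its value was seen, fell by 0.19 (0.0442). Aldoc, the aldolase also known as zebrin, rose by 0.39 (adjusted p = 0.00299) with 12 of 12 Ethanol animals above the Vehicle median, and is expressed by astroglia as well as by Purkinje cells. Without the 4 libraries low in Ttr only 2 of the 12 passed, Car8 and Aldoc, so Pcp4 and Rora did not. The same 2 passed without the 4 libraries above 25 CPM of hindbrain markers, described below. Rora also lost its call without Ethanol X4568, where 3 passed: Pcp4, Car8 and Aldoc. The summed level of the 12 markers was 1921 to 2366 CPM in Vehicle and 1884 to 2179 CPM in Ethanol animals. Of 12 markers of progenitors and radial glia, 1 rose and 0 fell: Hes5, a Notch target that holds progenitors undifferentiated, ran from 10.6 to 16.7 CPM in Vehicle and from 13.1 to 31.7 CPM in Ethanol animals, a rise of 0.78 ± 0.11 (adjusted p = 8.0e-05). The count at an unadjusted p under 0.05, met by at least 4849 of all genes, was 1 higher and 3 lower in that list. Among the lower was the intermediate filament gene Nes at -0.26 (adjusted p = 0.0534). Among 14 rhombic lip and granule lineage markers, 2 rose, Eomes of unipolar brush cells by 0.35 (adjusted p = 0.0298) and Atoh1 of granule cell precursors by 0.20 (0.0474), and 1 fell, Barhl1 by 0.18 (0.0442). With the runs as a block 5 of these 14 passed, and 2 of the 12 progenitor markers, beside 1982 higher and 1363 lower of all 17736 genes. Atoh1 and Barhl1 stood close to the threshold and passed in 4 and in 10 of the 24 fits that each left out 1 animal. Eomes lost its call without Ethanol X4568 (0.29, adjusted p = 0.0584), Ethanol X4569 (0.30, 0.0568) or Vehicle X4677 (0.34, 0.0526), and Pcp4 lost it without Vehicle X4679 (-0.11, 0.0563) or Ethanol X4765 (-0.11, 0.0658). In the 6 fits that each left out 1 run, Eomes and Pcp4 passed in 2 each, and Atoh1 and Barhl1 in 1 each. Without the libraries low in Ttr, Eomes was at 0.25 (adjusted p = 0.0703) and did not pass.

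Levels of Slc6a5 and Gad2 moved with genes of the hindbrain outside the cerebellum. The 16 hindbrain markers, mainly Hox genes, which the cerebellar primordium does not express, summed to 4.66 to 79.6 CPM (median 8.02) in Vehicle and 4.05 to 32.4 CPM (median 8.46) in Ethanol animals, and 10 of the 16 were at a count of 0 in some library. The 7 libraries with the highest sums, 4 Ethanol and 3 Vehicle at 14.6 to 79.6 CPM, were also the 7 highest in Slc6a5, at 28.4 to 54.3 CPM beside 17.5 to 27.4 CPM in the other 17. Of the 7 highest in Gad2, 6 were among them. The other 7 genes of the 9 were not compared with the sums in this way. Slc32a1 too was highest in libraries among these 7, Ethanol X4694, Vehicle X4768 and Ethanol X4765, at 66.8 to 67.5 CPM. Vehicle X4677, also among these 7, held 55.4 CPM of Slc32a1. The Vehicle animal X4762 had the highest sum and the highest Slc6a5, with 623 counts of Hoxa5, and Vehicle X4677 had the next highest sum, with 421 counts of Hoxa5. This comparison was made after the values were seen, and the part of hindbrain tissue in the levels was not tested. Without the 4 libraries above 25 CPM, 2 of each group, Slc6a5 stood at 0.09 (adjusted p = 0.664), Gad2 at 0.12 (0.315), Neurog1 at 0.65 (0.00331) and Ptf1a at 0.42 (0.0611). Of the 6 hindbrain markers with enough reads to test, 1 rose and 0 fell, beside 9.07% and 5.8% of all genes.

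**Figure D3:**
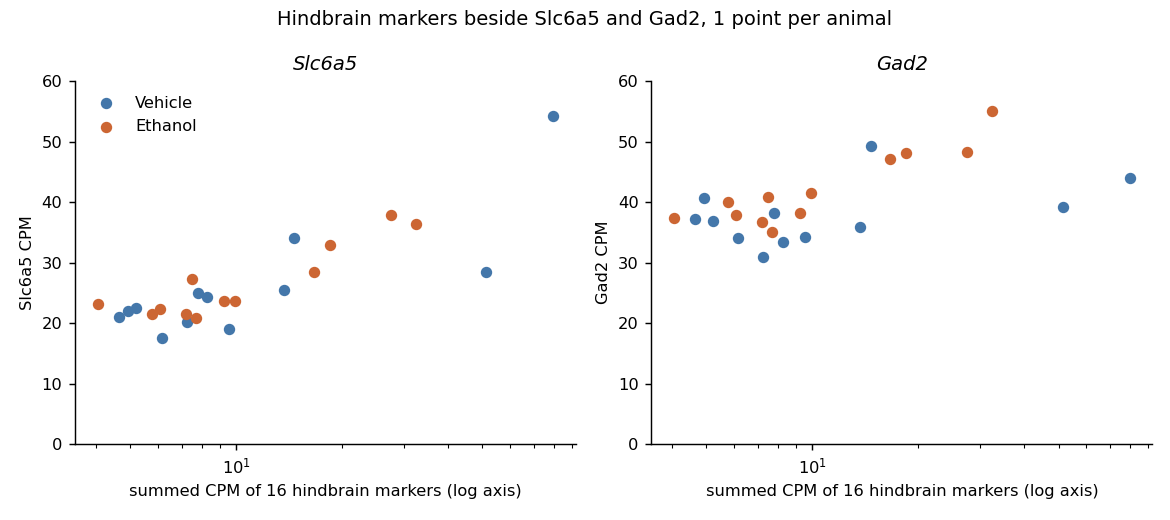
Slc6a5 (left) and Gad2 (right) in CPM on linear vertical axes from 0, against the summed CPM of 16 hindbrain markers on a logarithmic horizontal axis, 1 point per animal, Vehicle in blue and Ethanol in orange. The 7 animals with sums of 14.6 CPM or more hold the 7 highest values of Slc6a5, from 28.4 to 54.3 CPM, and 6 of the 7 highest of Gad2.

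Neither midbrain nor choroid plexus markers passed in either direction, beside 14.9% of all genes. Of the 8 midbrain markers 7 were tested, and 0 of these and 0 of 10 choroid plexus markers passed in edgeR, limma-trend, limma-voom or DESeq2 or had an unadjusted p under 0.05. The homeobox gene Otx2, which is in both lists, stood at -0.29 (adjusted p = 0.233), and Ttr at -0.27 (0.88). Summed midbrain markers ran from 76.6 to 135 CPM in Vehicle and from 73.1 to 120 CPM in Ethanol animals. Most of this sum came from Otx2 (means of 57.7 CPM in Vehicle and 47.3 CPM in Ethanol animals) and Barhl2 (38.9 and 40.4 CPM). Since Otx2 is also in the choroid plexus list, the sum is not a measure of midbrain RNA alone. Choroid plexus markers ran from 125 to 5992 CPM (median 3299) in Vehicle and from 136 to 5998 CPM (median 2496) in Ethanol animals, and the log2 fold changes of the 10 were positive in 0, with a median of -0.29.

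The differences were uneven between runs for several of the 9 genes. Neurog1 ranged over 0.61, 1.17, 1.09, 0.52, 0.35 and 0.38 in runs 1 to 6, and Ptf1a over 0.49, 0.85, 0.66, 0.00, 0.09 and 0.39. Both were highest in runs 2 and 3. A test of the difference in effect between runs, added after the values were seen, gave unadjusted p of 0.03 for Lhx1, 0.0442 for Neurog1 and 0.0448 for Ptf1a, and none of the 9 passed after adjustment (edgeR, adjusted p = 0.736, 0.813 and 0.814 for these 3). Lhx1 ran from 0.21 in run 1 to -0.15 in run 6. Of all 17736 genes, 12 passed that test. Lhx5 and Gad2 were higher in Ethanol animals in 6 of 6 runs but by at most 0.25 and 0.41, and the sign of Slc6a5 turned between runs, from -0.53 to 0.53.

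**Figure D4:**
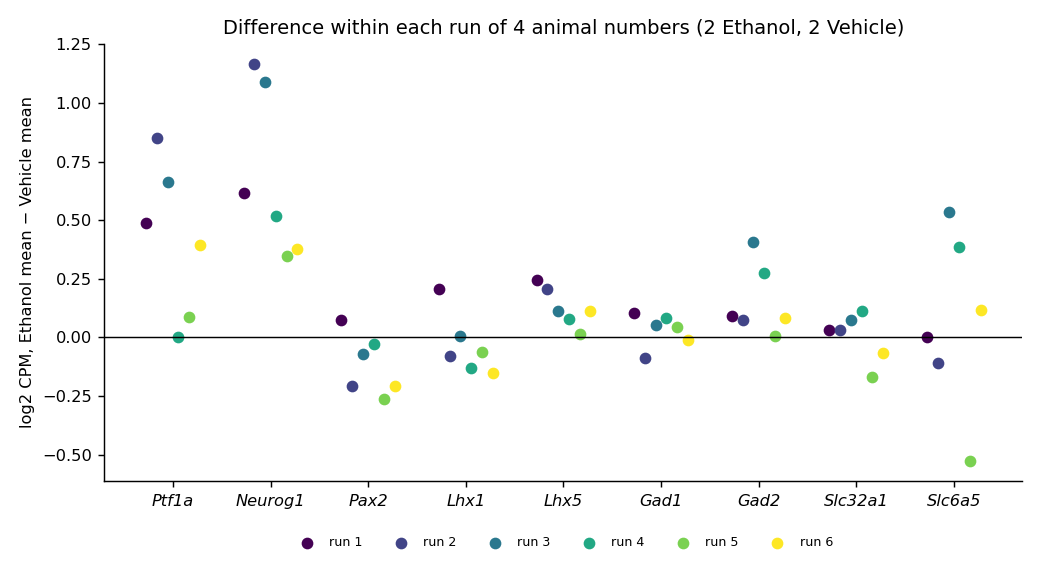
Difference between the mean log2 CPM of 2 Ethanol and 2 Vehicle animals within each of 6 runs of animal numbers (vertical axis, linear, 0 marked by a line), 1 point per run, for the 9 genes on the horizontal axis. Every point of Neurog1 lies above 0, from 0.35 to 1.17, those of Ptf1a reach down to 0.00, and those of Slc6a5 fall on both sides, from -0.53 to 0.53.

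Per kilobase of exon the 9 genes spanned a wide range. In Vehicle animals the median levels, in CPM per kilobase, were 37.2 for Lhx1, 25.6 for Gad1, 20.2 for Slc32a1, 9.96 for Lhx5, 7.25 for Pax2, 6.30 for Gad2, 3.25 for Slc6a5, 1.90 for Ptf1a and 1.02 for Neurog1. Lhx1 at 34.2 to 45.0 lay above every other gene in all animals, and Neurog1 at 0.667 to 1.33 lay below every other gene. Neighbours in this order overlapped between animals for Gad1 and Slc32a1 (23.8 to 28.1 and 18.0 to 23.9), for Pax2 and Gad2 (6.42 to 8.01 and 5.26 to 8.40), for Gad2 and Slc6a5 (2.44 to 7.54) and for Slc6a5 and Ptf1a (1.36 to 2.84). In Ethanol animals the order was the same except that Gad2 (median 6.88) stood above Pax2 (6.56), with overlapping ranges. The progenitor factors were thus the scarcest RNAs of the set, and their levels rest on the fewest counts.

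Some of the 9 genes also varied together from animal to animal within the groups. Correlations were taken over 24 animals on log2 CPM after removing the group means, for 36 pairs, with permutation p adjusted over the pairs. The permutations did not keep animals within runs. Gad2 and Slc6a5 had the closest relation, with Pearson's r of 0.79 and Spearman's rho of 0.79 (permutation, adjusted p = 0.00108 for each). The r of this pair was 0.767 without 2 animals and 0.784 within runs, that is with the mean of each group in each run removed. In every pair the 2 animals left out were those farthest from the median in the gene named first, so extremes of the other gene could stay. Gad2 and Slc6a5 are also the only 2 of the 9 genes that were compared with the hindbrain markers. Lhx5 and Neurog1 had an r of 0.553 and a rho of 0.57 (permutation, adjusted p = 0.0288 and 0.0452), with 0.499 without 2 animals and 0.686 within runs. Ptf1a and Gad1 went in opposite directions, with an r of -0.583 and a rho of -0.59 (permutation, adjusted p = 0.0251 and 0.0452), but the r within runs was -0.165. The r within runs was not tested and rests on 2 animals per group and run, so it cannot tell whether this relation holds there. Ptf1a and Neurog1, the 2 genes that rose, had an r of 0.517 (permutation, adjusted p = 0.0494) and a rho of 0.497 (0.0727), with 0.414 without 2 animals and 0.316 within runs. In 3 other pairs only Pearson's r passed: Gad2 with Slc32a1 (r = 0.67, rho = 0.522, permutation, adjusted p = 0.0081 and 0.0566), Lhx1 with Gad1 (0.612, 0.539, 0.0187 and 0.0566) and Pax2 with Slc32a1 (0.556, 0.534, 0.0288 and 0.0566). For these 3 pairs r was 0.479, 0.524 and 0.329 without 2 animals, and 0.522, 0.425 and 0.247 within runs.

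Among 15384 genes with a mean of at least 1 CPM, those whose levels followed each of the 9 most closely over the 24 animals, with group means removed, are given as a description. Ptf1a was followed closely by Inka2 (0.783) and Atoh1 (r = 0.755, rho = 0.78). For Neurog1 these were Gm37584 (0.821), Srfbp1 (0.79) and Gm27032 (0.784). Slc6a5 was most like Vamp1 (0.933), Vsnl1 (0.927) and Trim9 (0.901), and Gad2 most like Kcnj10 (0.907), Cdk14 (0.905) and Inpp5j (0.902). Pax2 followed Arhgap33 (0.869), Wnk2 (0.841) and Cbfa2t3 (0.81). For Lhx1 the nearest were Sufu (0.918), Zcchc14 (0.911) and Nfia (0.905), and for Lhx5 Hmg20b (0.845), Zfp358 (0.841) and Zbtb17 (0.841). Gad1 was nearest to Gria1 (0.849), Gm5859 (0.843) and Mturn (0.841), and Slc32a1 to Mapk8ip1 (0.881), Ncdn (0.873) and Syn1 (0.868). All points share their library and its depth, and these correlations carry no test.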

How the data were processed

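RNA of 24 cerebella was sequenced as poly(A) libraries. The authors made estimated counts per gene with nf-core/rnaseq, and the submitters' notes name STAR, Salmon, limma and GRCm39. The notes give no versions of these tools, annotation release and strandedness were not given in the sources used here, and homogenizer and RNA kit differ between the labels and the published methods. The deposited estimated counts were rounded (10.92% of all values lay more than 0.01 from a whole number), and 0 sample columns were left unmapped.

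Genes were filtered with filterByExpr, scaled by TMM and fitted with edgeR 4.0.16 (R 4.3.3). The fit was the robust glmQLFit and the test glmQLFTest, two-sided, on 22 residual degrees of freedom with Benjamini-Hochberg adjustment over 17736 genes. The procedure was tested on simulated data. Correlations used 100000 permutations. Plots were drawn with matplotlib 3.10.9. Exon lengths (GENCODE M21) and promoter windows (RefSeq) are of GRCm38, another build than that of the counts.

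Alternatives used limma 3.58.1, DESeq2 1.42.0, RLE and upper-quartile factors, 2 other filters, runs as a block, 3 surrogate variables (sva 3.50.0), and leaving out animals, runs, the 4 libraries with Ttr under a log2 CPM of 4 or, chosen after seeing the data, the 4 above 25 CPM of hindbrain markers. The text names all 9 genes, the 3 genes most similar to each, and from every other list the 2 smallest p per direction or, where none passed, the gene of highest mean CPM. Any other gene was chosen after its values were seen. A few genes that this rule names are not reported here, although the counts of their lists include them. The 9 genes and all lists were chosen with earlier results of these data known. At 26982564 to 38804942 counts per library, low counts limit Neurog1 and Ptf1a most.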

Additional observations from a re-analysis of the deposited data

How the results depend on the processing

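The fit was repeated under 41 other settings: 11 of test, scaling, filter, covariate or sample set, 24 without 1 animal and 6 without 1 run. Neurog1 passed in 41 of 41 settings (log2 fold change 0.58 to 0.76) and Ptf1a in 37, while Lhx1, Gad1, Slc32a1 and Slc6a5 passed in 0. Pax2 and Lhx5 passed in 4 each and Gad2 in 2. The sign of Slc32a1 was positive in 25 settings and that of Slc6a5 in 33, and neither was called in any.

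With upper-quartile factors Pax2 was at -0.13 (adjusted p = 0.0439), which made 1 gene of the 9 lower, beside 1396 of all genes. With 3 surrogate variables Pax2 was at -0.13 (0.0273), Lhx5 at 0.13 (0.0195) and Gad2 at 0.14 (0.0221), giving 4 higher and 1 lower of the 9 and 1582 lower of all genes. Without the libraries low in Ttr, Ptf1a was at 0.38 (0.0635), and 1 of the 9 was higher, beside 1206 higher and 612 lower of all genes. Without the libraries high in hindbrain markers, Ptf1a was at 0.42 (0.0611), and 1 of the 9 was higher and 633 of all genes lower. With no filter 662 of all genes were lower, where 1028 were in the fit reported. The causes of these shifts were not tested.

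Leaving out 1 animal or run moved Ptf1a between 0.34 and 0.52, Pax2 between -0.15 and -0.086, Lhx5 between 0.10 and 0.16 and Gad2 between 0.11 and 0.20. The 9 genes then held 1 to 3 higher and 0 to 1 lower, and all genes 1103 to 1818 higher and 499 to 1438 lower.

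The animal numbers are unique, so the labels pair no animals. With the runs as a block, Neurog1 was at 0.70 (adjusted p = 8.42e-05) and Ptf1a at 0.42 (0.00285), no call among the 9 genes changed, and 1982 genes were higher and 1363 lower. The lists of GABAergic lineage factors, rhombic lip markers and progenitor markers then held 5, 5 and 2 called genes.

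Over all settings 1 to 5 of 16 lineage factors were called, and 0 to 1 of 11 genes for transmitter handling. The number was 0 to 1 of 12 maturing interneuron markers and 2 to 5 of 12 Purkinje cell markers. Among rhombic lip markers 0 to 5 of 14 were called, and among progenitor markers 1 to 3 of 12. Of 16 hindbrain markers, 6 of them tested in the fit reported, 0 to 1 were called. The number was 0 for the 8 midbrain markers, 7 of them tested, and for the 10 choroid plexus markers. The calls among all genes moved too, from 1103 to 1487 higher and 499 to 915 lower without 1 run. With the runs as a block 1982 were higher and 1363 lower. How far the list counts followed those of all genes was not tested.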
